A study of Homo sapiens with 4 samples.

Results

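Insulin-like growth factor-binding proteins (IGFBPs), matrix metalloproteinases (MMPs) and tissue inhibitors of metalloproteinases (TIMPs) are secreted or cell-surface proteins that act outside the cell. IGFBPs bind insulin-like growth factors in the extracellular space and control how much growth factor reaches its receptor, and IGFBP7 is an atypical member with low affinity for these factors. MMPs are zinc-dependent enzymes that cleave matrix proteins, and TIMPs block them by binding to the active site. Members of all 3 families are counted among the secreted proteins of senescent cells, the senescence-associated secretory phenotype (SASP).

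Of the 10 genes of these families chosen by name (IGFBP3, IGFBP4, IGFBP6, IGFBP7, MMP1, MMP2, MMP14, TIMP1, TIMP2 and TIMP3), 8 were found among the 6828 genes of the deposited table. MMP1, an interstitial collagenase, and MMP14, a membrane-anchored protease that activates pro-MMP2, have no row in it and were not analysed here. Total RNA was taken from A549, an epithelial line from a human lung adenocarcinoma, 72 h after infection with lentiviruses carrying a control shRNA (shctrl) or an shRNA against the long noncoding RNA USP2-AS1 (shUSP2-AS1). Both groups therefore carried a pLKO.1 lentiviral vector and went through puromycin selection, no uninfected cells were among the samples, and the sources do not say which USP2-AS1 shRNA was sequenced. Poly(A) RNA was sequenced in 2 libraries per group, described as biological replicates.

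The deposited value of a gene in a library is its read count divided by a size factor, called the normalized read count below. Whole reads could be recovered from it, and they summed to between 10772788 and 14120472 per library over the listed genes. Every gene in the table had passed an adjusted p of 0.05 in the authors' own comparison of the same 4 libraries, so that a low adjusted p here is no independent evidence for any gene. Of the 6812 genes tested with limma on log2(value + 1), 6811 had an adjusted p below 0.05 and the libraries of the groups did not overlap in 6811 (100.0% in each case). Genes were therefore called changed when the log2 fold change was also at least 1 in size, which held for 13.5% of tested genes in the lower direction and for 16.1% in the higher direction. USP2-AS1 itself was covered by 24 and 22 reads in control cells against 2 and 7 after knockdown, with a log2 fold change of -2.39. Of the epithelial markers EPCAM, KRT8, KRT18, KRT19 and CDH1, the 3 keratins are listed, with summed normalized read counts of 112597 to 121676 in shctrl and 68054 to 70739 in shUSP2-AS1. They did not move together, since KRT8 and KRT18 were lower (log2 fold change -0.77 and -1.05) and KRT19 was higher (0.75). Of 6 fibroblast markers, COL1A1 and LUM are listed, with sums of 263 to 295 and 555 to 634, and none of 4 endothelial and 4 leukocyte markers is listed. The part of these shifts in the results that follow was not tested, and in bulk RNA a change in the cells that express a gene cannot be told apart from a change in RNA per cell.

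After USP2-AS1 knockdown, 7 of the 8 measured members were higher and IGFBP3 alone was lower. IGFBP7, MMP2, TIMP2 and TIMP3 were called higher (4 of 8, against 16.1% of all tested genes), and IGFBP3 was called lower (1 of 8, against 13.5%). Calls in either direction made up 5 of 8 members and 29.7% of tested genes. IGFBP4, IGFBP6 and TIMP1 were also higher but by less than 2-fold. Without the fold threshold the 1 lower and 7 higher members stand beside 49.4% and 50.6% of tested genes. The median log2 fold change of the 8 members was 0.87, and that of all 6812 genes was 0.19. No member had libraries that overlapped between the groups, as in 100.0% of tested genes.

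**Figure D1:**
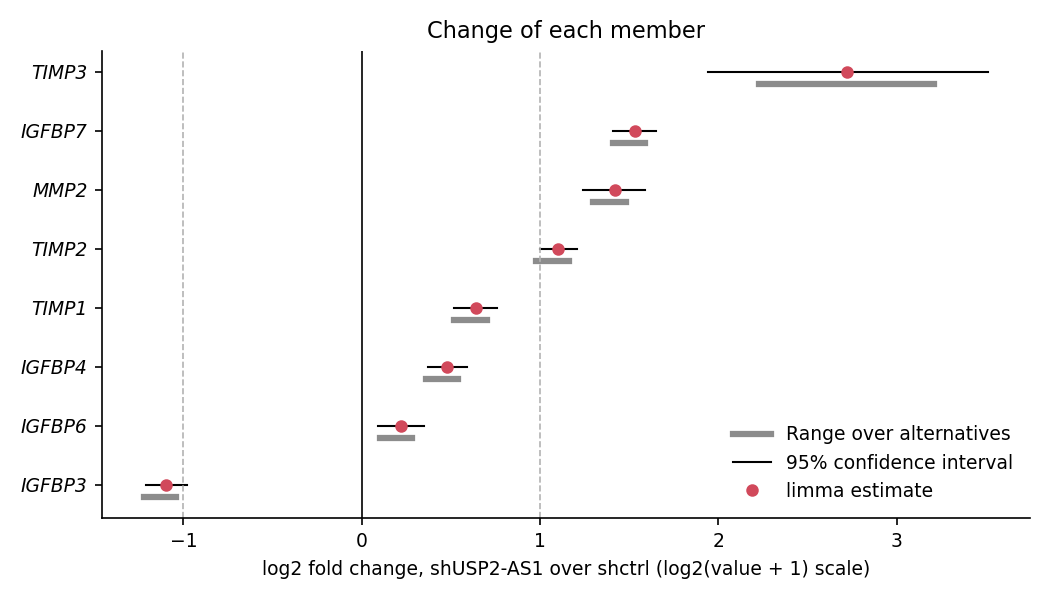
Log2 fold change of each measured member in shUSP2-AS1 over shctrl on the log2(value + 1) scale (points), with the 95% confidence interval from limma (black lines) and the range over the alternative settings (grey bars). The 7 points to the right of 0 run from 0.22 for IGFBP6 to 2.72 for TIMP3, and IGFBP3 lies at -1.10, with dashed lines at -1 and 1.

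RefSeq promoter windows of the GRCh38.p14 build were found for 5 of the 8 measured members (IGFBP3, IGFBP4, IGFBP6, TIMP1 and TIMP3), and MMP2, TIMP2 and IGFBP7 had none in the table used. The 120 bases before the start are shown for 4 of them, to set the single lower member, IGFBP3, beside higher ones. They are written 5′ to 3′ on the strand of the gene, with GC boxes (GGGCGG on either strand) and the TATA box (TATAAA) in capitals. IGFBP6 is not shown because all 120 bases of its window lie in GENCODE exons. Of the TIMP1 window, 28 bases lie in GENCODE exons, and of the IGFBP3, IGFBP4 and TIMP3 windows 0. The RefSeq start of IGFBP3 lies inside the GENCODE bounds of the gene, and so does its window. The windows are chr7:45921273-45921392 (minus strand) for IGFBP3, chr17:40443330-40443449 (plus strand) for IGFBP4, chrX:47582316-47582435 (plus strand) for TIMP1 and chr22:32801585-32801704 (plus strand) for TIMP3.
IGFBP3: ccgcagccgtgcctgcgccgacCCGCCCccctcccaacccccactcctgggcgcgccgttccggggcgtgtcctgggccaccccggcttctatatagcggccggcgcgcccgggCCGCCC
IGFBP4: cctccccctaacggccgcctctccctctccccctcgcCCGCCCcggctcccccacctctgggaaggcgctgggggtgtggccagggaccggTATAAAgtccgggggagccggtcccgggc
TIMP1: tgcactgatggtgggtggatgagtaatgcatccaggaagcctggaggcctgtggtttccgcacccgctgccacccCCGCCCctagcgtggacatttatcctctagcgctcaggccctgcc
TIMP3: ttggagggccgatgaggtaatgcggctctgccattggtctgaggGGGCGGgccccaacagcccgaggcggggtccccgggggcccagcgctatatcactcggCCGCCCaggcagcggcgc
Within 250 bases before the start, a GC box was present in 5 of the 5 windows, IGFBP3 included, against 42.6% of the 35116 promoters in the table. TIMP3 held 5 GC boxes, the IGFBP3 and TIMP1 windows 2 each, and the IGFBP4 and IGFBP6 windows 1 each. The exact TATA box letters TATAAA were found in IGFBP4, 29 bases before the start, against 10.7% of all promoters. Other forms of this box were not searched for, and the IGFBP3 window shown holds the letters tatata. The AP-1 sequence TGANTCA, the E-box CACGTG and the E2F sequences TTTCCCGC, TTTCGCGC, TTTGCCGC and TTTGGCGC, each searched on both strands, occurred in 0 of the 5, against 6.57%, 6.34% and 2.79% of all promoters. Other forms of the AP-1, E-box and E2F sequences were not searched for, and the TIMP1 window shown holds the letters tgagtaa. All matches named here describe letters in a window and were not measured as binding sites.

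The IGF-binding proteins moved in different directions. IGFBP3, the main carrier of insulin-like growth factors in serum and a known p53 target gene, lies at chr7:45912245-45921874 of GRCh38 on the minus strand (ENSG00000146674). Its normalized read count was 4194 and 3934 in shctrl and 1867 and 1925 in shUSP2-AS1. Both knockdown libraries were below either control library, and the groups did not overlap in 100.0% of tested genes. The group means were 4064 ± 183 (SD, n = 2) and 1896 ± 41.0 (SD, n = 2). The log2 fold change was -1.10 (95% confidence interval -1.21 to -0.98, standard error 0.055, adjusted p = 5.21e-12 from limma). The interval reaches past -1, and in limma's test against a fold change of 2 IGFBP3 was no longer called.

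IGFBP7 (ENSG00000163453), a secreted protein of the matrix, lies on the minus strand at chr4:57030773-57110385. It had values of 2816 and 2565 in shctrl and of 7502 and 8004 in shUSP2-AS1. The means of 2690 ± 177 (SD, n = 2) and 7753 ± 355 (SD, n = 2) differed 2.88-fold, or 1.53 as a log2 fold change (standard error 0.056, 95% confidence interval 1.41 to 1.65, adjusted p = 1.14e-13 from limma). This was the largest increase among the IGFBPs of the table. Its exons share 260 bases with those of POLR2B on the opposite strand, and POLR2B was lower in the same cells, with a log2 fold change of -0.76. They also share 94 bases with the long noncoding RNA IGFBP7-AS1 on the opposite strand, which is not listed. Whether counting used the strand is not given in the sources used here. Exons of MMP2 share 174 bases with those of ENSG00000279030 on the same strand. Those of TIMP2 share 224 bases with CEP295NL on the same strand and 367 with ENSG00000267601 on the opposite strand. None of these genes sharing bases with MMP2 or TIMP2 is listed, and the part of such overlaps in the values was not tested.

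IGFBP4 (ENSG00000141753, chr17:40443450-40457725, plus strand), which inhibits growth factor action and is cleaved by the protease PAPPA, was the most abundant member. Its normalized read count was 44314 and 42768 in shctrl and 60039 and 61435 in shUSP2-AS1. It ranked 20 among the 6828 genes by mean value in shctrl and 13 in shUSP2-AS1. The difference was 1.39-fold (log2 fold change 0.48, standard error 0.053, adjusted p = 1.8e-07 from limma) and did not reach 2-fold. The SDs were 1093 in shctrl and 987 in shUSP2-AS1. IGFBP6 (ENSG00000167779, chr12:53097436-53102345, plus strand), which prefers IGF-II, changed least. It had values of 1649 and 1515 in shctrl and of 1860 and 1825 in shUSP2-AS1, a 1.16-fold difference with a log2 fold change of 0.22 (95% confidence interval 0.09 to 0.35, adjusted p = 0.00209 from limma). With RLE scaling its log2 fold change was 0.10 (adjusted p = 0.106 from limma), and with DESeq2 and its own size factors 0.10 (adjusted p = 0.213 from DESeq2). Both scalings were estimated from the listed genes alone. With DESeq2 and the size factors of the deposited values it was 0.22 (adjusted p = 0.00872 from DESeq2).

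The other IGFBPs of the table, IGFBP1 and IGFBP2, were higher as well (50.6% of all tested genes). IGFBP1, which is controlled by insulin and stress in the liver, had values of 339 and 286 in shctrl and 623 and 535 in shUSP2-AS1, and IGFBP2 had 1288 and 1135 against 1649 and 1737. Their log2 fold changes were 0.89 and 0.48, below the fold threshold. IGFBP1 lies on the plus strand of chromosome 7 in tail-to-tail orientation with IGFBP3, 18584 bases away in GENCODE release 44, so the lower and a higher member of the family are genomic neighbours.

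**Figure D2:**
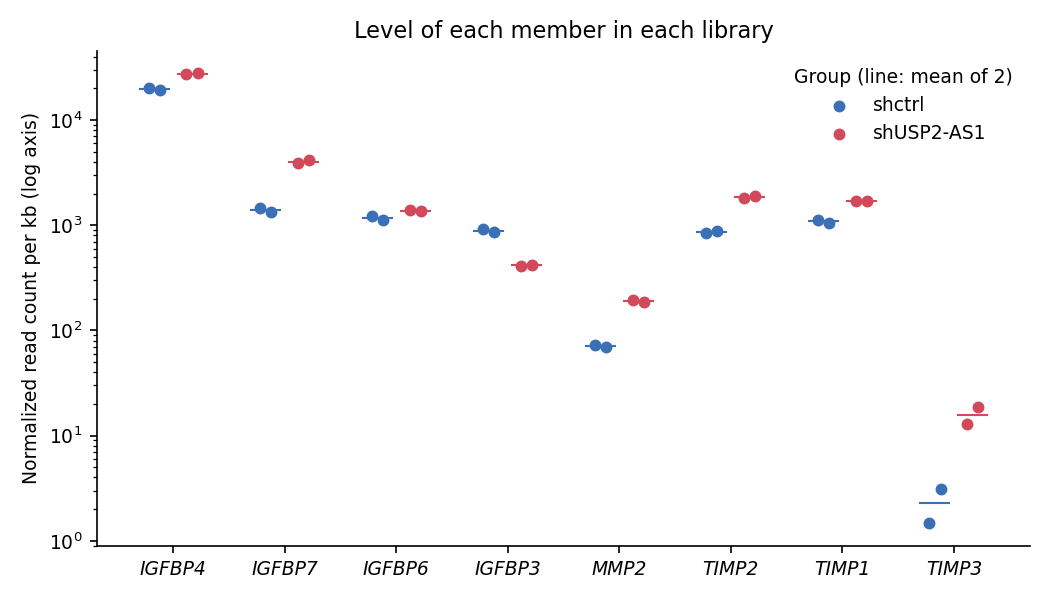
Normalized read count per kilobase of the authors' gene length (log axis) for the 8 measured members in each of the 4 libraries, with shctrl in blue and shUSP2-AS1 in red, and short lines for the mean of 2 libraries. In shUSP2-AS1 the levels run from 27545 for IGFBP4 to 15.7 for TIMP3, and the red points lie below the blue ones for IGFBP3 alone.

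Levels of different genes were compared per kilobase of gene length. In shctrl the mean level per kilobase was 19747 for IGFBP4, 1394 for IGFBP7, 1176 for IGFBP6, 1093 for TIMP1, 889 for IGFBP3, 866 for TIMP2, 71.0 for MMP2 and 2.29 for TIMP3. IGFBP6 and TIMP1 overlapped in their libraries, as did IGFBP3 and TIMP2, so that neither pair can be ordered. In shUSP2-AS1 no neighbours overlapped, and the order was IGFBP4, IGFBP7, TIMP2, TIMP1, IGFBP6, IGFBP3, MMP2 and TIMP3. TIMP2, which overlapped with IGFBP3 in shctrl, stood above it in shUSP2-AS1, at 1860 against 415. IGFBP3 was below IGFBP6 and TIMP1 in both groups. The order depends in part on the length used. Per kilobase of the GENCODE canonical transcript, TIMP1 stood above IGFBP7 in shctrl (2056 and 1885) and above TIMP2 in shUSP2-AS1 (3208 and 2869), and IGFBP3 overlapped with IGFBP6 in shctrl.

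Summed per kilobase of the authors' gene length, the 6 listed IGFBPs reached 24177 and 23125 in shctrl and 33633 and 34478 in shUSP2-AS1. IGFBP4 made up 83.1% and 83.9% of this sum in shctrl and 81.0% and 80.8% in shUSP2-AS1. The share of IGFBP7 was 6.03% and 5.75% in shctrl and 11.6% and 12.0% in shUSP2-AS1, while that of IGFBP3 was 3.79% and 3.72% against 1.21% and 1.22%. IGFBP4 thus made up most of the sum in all 4 libraries, and IGFBP7 took a larger and IGFBP3 a smaller share after knockdown.

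**Figure D3:**
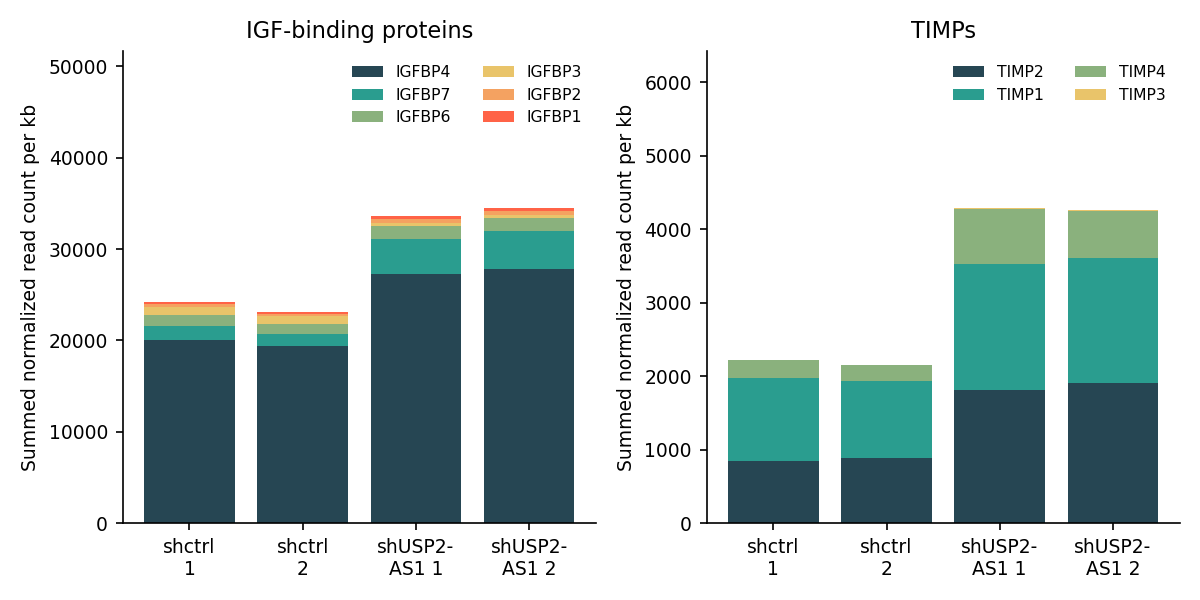
Summed normalized read count per kilobase of the authors' gene length for the 6 listed IGFBPs (left) and the 4 listed TIMPs (right), by library. Both axes start at 0 and each color marks a gene. The IGFBP sum is 23125 and 24177 in shctrl and 33633 and 34478 in shUSP2-AS1, mostly IGFBP4, and the TIMP sum is 2151 and 2220 against 4264 and 4287.

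MMP2, also called gelatinase A, degrades denatured collagen and type IV collagen of basement membranes. The gene (ENSG00000087245) lies at chr16:55389700-55506691 on the plus strand. Its normalized read count was 338 and 330 in shctrl and 918 and 871 in shUSP2-AS1, from 300 to 989 reads per library. The means of 334 ± 6.01 (SD, n = 2) and 894 ± 33.4 (SD, n = 2) differed 2.68-fold, or 1.42 as a log2 fold change (standard error 0.083, 95% confidence interval 1.24 to 1.59, adjusted p = 4.83e-11 from limma). MMP2 was called in each alternative setting run, the test against a fold change of 2 included.

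Of the 20 other MMPs searched for, 2 are listed, both higher (50.6% of all tested genes) and 1 of them called (16.1%). MMP7 (matrilysin), a small secreted protease of epithelial cells, had values of 412 and 365 in shctrl and 1049 and 1061 in shUSP2-AS1 (log2 fold change 1.44). MMP24, a membrane-anchored MMP, had 1812 and 1785 against 3128 and 3129 (log2 fold change 0.80, below the fold threshold). The remaining 18 have no row in the table and were not analysed here.

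All 3 member TIMPs were higher in shUSP2-AS1 (50.6% of all tested genes). TIMP2 (ENSG00000035862, chr17:78852977-78925387, minus strand) inhibits MMP2 and also takes part in the activation of pro-MMP2 at the cell surface. Its normalized read count was 4785 and 4975 in shctrl and 10216 and 10739 in shUSP2-AS1, with means of 4880 ± 134 (SD, n = 2) and 10478 ± 370 (SD, n = 2). The log2 fold change was 1.10 (standard error 0.05, 95% confidence interval 1.00 to 1.21, adjusted p = 1.36e-12 from limma), at the edge of the fold threshold. It was 0.98 with RLE scaling and 0.99 with DESeq2 and its own size factors, where TIMP2 was no longer called. Both scalings were estimated from the listed genes alone, all of them past the authors' threshold. With DESeq2 and the size factors of the deposited values the estimate was 1.10. The test against a fold change of 2 did not call TIMP2 either.

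TIMP1 (ENSG00000102265, chrX:47582408-47586789, plus strand), which inhibits most secreted MMPs and also binds CD63, had values of 1638 and 1524 in shctrl and 2482 and 2453 in shUSP2-AS1. The 1.56-fold difference, or 0.64 as a log2 fold change (standard error 0.058, 95% confidence interval 0.52 to 0.76, adjusted p = 1.34e-08 from limma), was smaller than that of TIMP2, and the 2 intervals do not overlap. No test between genes was run.

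TIMP3 (ENSG00000100234, chr22:32801705-32863041, plus strand), a matrix-bound inhibitor that also blocks ADAM17, had the largest fold change of the members and the fewest reads. There were 7 and 13 reads in shctrl and 56 and 97 in shUSP2-AS1, or normalized read counts of 6.76 and 14.3 against 58.9 and 85.4. The means of 10.5 ± 5.32 (SD, n = 2) and 72.1 ± 18.7 (SD, n = 2) gave a log2 fold change of 2.72 with a standard error of 0.37 and a 95% confidence interval of 1.94 to 3.51 (adjusted p = 2.52e-06 from limma). With single libraries left out, the estimate lay between 2.23 without shctrl replicate 1 and 3.21 without shctrl replicate 2. The direction was the same in each case, but the size is known less well than for the other members. TIMP3 is left out when each library must hold 10 reads or more.

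TIMP4, the remaining TIMP, is listed too and was higher, with values of 282 and 252 in shctrl and 889 and 767 in shUSP2-AS1 (log2 fold change 1.63, adjusted p = 7.26e-11 from limma). All 4 TIMPs of the table were therefore higher (50.6% of all tested genes). Their summed level per kilobase was 2220 and 2151 in shctrl and 4287 and 4264 in shUSP2-AS1. The share of TIMP1 in this sum was 51.0% and 49.0% in shctrl and 40.0% and 39.8% in shUSP2-AS1. TIMP4 took 10.6% and 9.80% in shctrl and 17.4% and 15.1% in shUSP2-AS1. These shares rest on the authors' gene length and were not computed with the canonical transcript. Per kilobase of that transcript, TIMP1 stood above TIMP2 in shctrl (2056 and 1336) and in shUSP2-AS1 (3208 and 2869).

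The planned ratio of MMP2 to its inhibitor TIMP2 was computed within each library, where scaling between libraries has no part. TIMP2 exceeded MMP2 per kilobase 11.8-fold and 12.6-fold in shctrl and 9.29-fold and 10.3-fold in shUSP2-AS1. The log2 ratio of MMP2 to TIMP2 was 0.32 higher in shUSP2-AS1, with no overlap between the groups (two-sided exact permutation test, p = 0.333, the smallest p that 2 against 2 libraries allow). TIMP2 transcripts thus remained in excess in all 4 libraries.

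**Figure D4:**
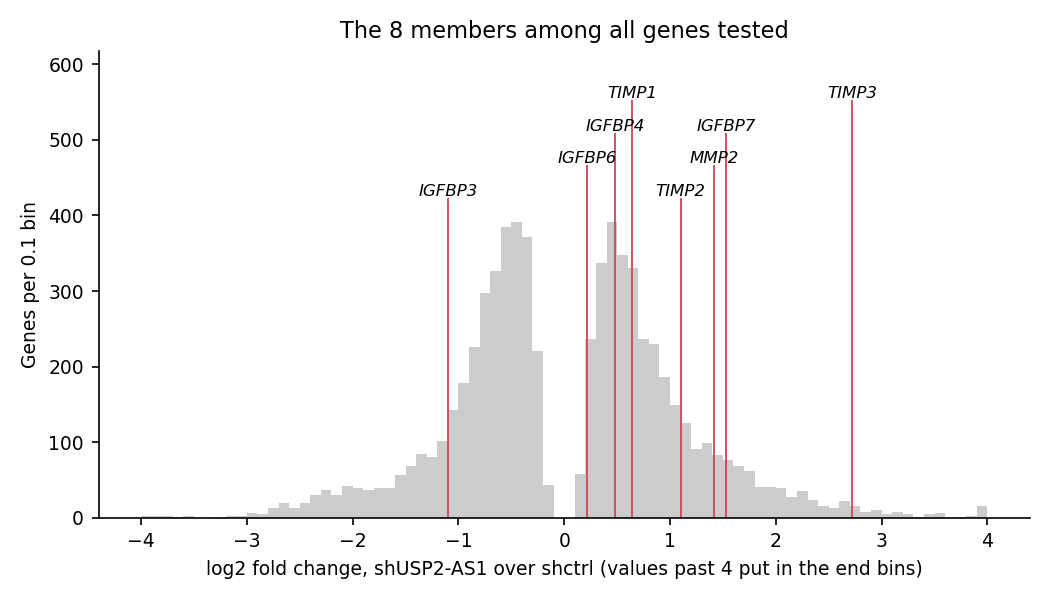
Number of tested genes (grey bars, bins of 0.1) by log2 fold change in shUSP2-AS1 over shctrl, with red lines for the 8 measured members. Few genes lie near 0, in a table that holds only genes past the authors' threshold, IGFBP6 lies at 0.22, and TIMP3 lies above 98.8% of tested genes.

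Among all 6812 genes tested, the log2 fold change of TIMP3 was above that of 98.8%, IGFBP7 above 92.3%, MMP2 above 90.9% and TIMP2 above 86.1%. IGFBP6 stood above 50.6% and IGFBP3 above 11.5%. Small changes are missing from this distribution, since only 102 of the tested genes had an absolute log2 fold change below 0.2.

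Insulin-like growth factors signal through IGF1R and its adaptors. Of 14 ligands, receptors and adaptors of the IGF pathway, 4 are listed, and all 4 were higher (50.6% of all tested genes) without reaching the fold threshold. IGF1R, the signalling receptor, had a log2 fold change of 0.45, IGF2R, which clears IGF-II, of 0.51, the adaptor GRB10 of 0.56 and the docking protein IRS1 of 0.22. The 10 others, the ligands IGF1 and IGF2 among them, have no row and were not analysed here.

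Enzymes that cleave IGFBPs and their regulators were listed in 5 of 7 cases, with 3 called higher (16.1% of all tested genes) and 1 called lower (13.5%). PAPPA, the metalloproteinase that cleaves IGFBP4, had values of 4140 and 4661 in shctrl and 10891 and 8957 in shUSP2-AS1 (log2 fold change 1.17). STC1, a stanniocalcin that inhibits PAPPA, had 380 and 371 in shctrl against 864 and 866 in shUSP2-AS1, and its relative STC2 had a log2 fold change of 0.99, below the fold threshold. The protease, its substrate IGFBP4 and its inhibitors were thus all higher. The serine protease HTRA1 rose from 1064 and 934 to 2871 and 2881 (log2 fold change 1.53), while the related HTRA3 fell from 215 and 179 to 106 and 85.4 (log2 fold change -1.03).

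Genes that activate MMPs or control that step were listed in 8 of 13 cases, all 8 higher (50.6% of all tested genes) and 3 of them called (16.1%). SERPINE2, a serpin that inhibits serine proteases such as thrombin and urokinase, had values of 5016 and 4733 in shctrl and 12221 and 12311 in shUSP2-AS1 (log2 fold change 1.33). The proprotein convertases FURIN and PCSK5, which cleave proproteins in the secretory pathway, had log2 fold changes of 1.54 and 1.52. The activator PLAT and the receptor PLAUR, with 0.96 and 0.59, did not reach the fold threshold. A protease inhibitor and proprotein convertases were therefore both among the called genes.

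Of 4 other inhibitors of metalloproteinases, TIMP4, RECK and TFPI2 are listed, with log2 fold changes of 1.63, 0.63 and 0.24. Among 30 ADAM and ADAMTS proteases, relatives of the MMPs, 11 are listed, 10 higher and 1 lower (50.6% and 49.4% of all tested genes), and 5 were called, all higher (16.1%). ADAM19 had values of 699 and 762 in shctrl and 3205 and 3188 in shUSP2-AS1 (log2 fold change 2.13), and ADAM23, ADAMTS7 and ADAMTS15 had log2 fold changes of 1.74, 1.38 and 1.33. ADAM17, the sheddase that TIMP3 inhibits, had 0.70, and ADAMTS9 was the lower one, with -0.66.

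Of 12 partners and clearance receptors of the members, 9 are listed, 8 higher and 1 lower (50.6% and 49.4% of all tested genes), with 4 called higher (16.1%). The integrin subunits ITGAV and ITGB3, which together bind MMP2 at the cell surface, had log2 fold changes of 1.92 and 1.37, while ITGB1 was lower with -0.66. The testicans SPOCK1 and SPOCK3 had 1.28 and 2.71, the latter from 7 and 4 reads in shctrl and 41 and 45 in shUSP2-AS1. SPOCK3 averaged 5.58 in shctrl and 41.4 in shUSP2-AS1. It reached the mean of 10 needed for testing, and so the count of 4, only through shUSP2-AS1. LRP1, which takes up MMPs and TIMPs from outside the cell, and the TIMP1 partner CD63 had 0.84 each.

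**Figure D5:**
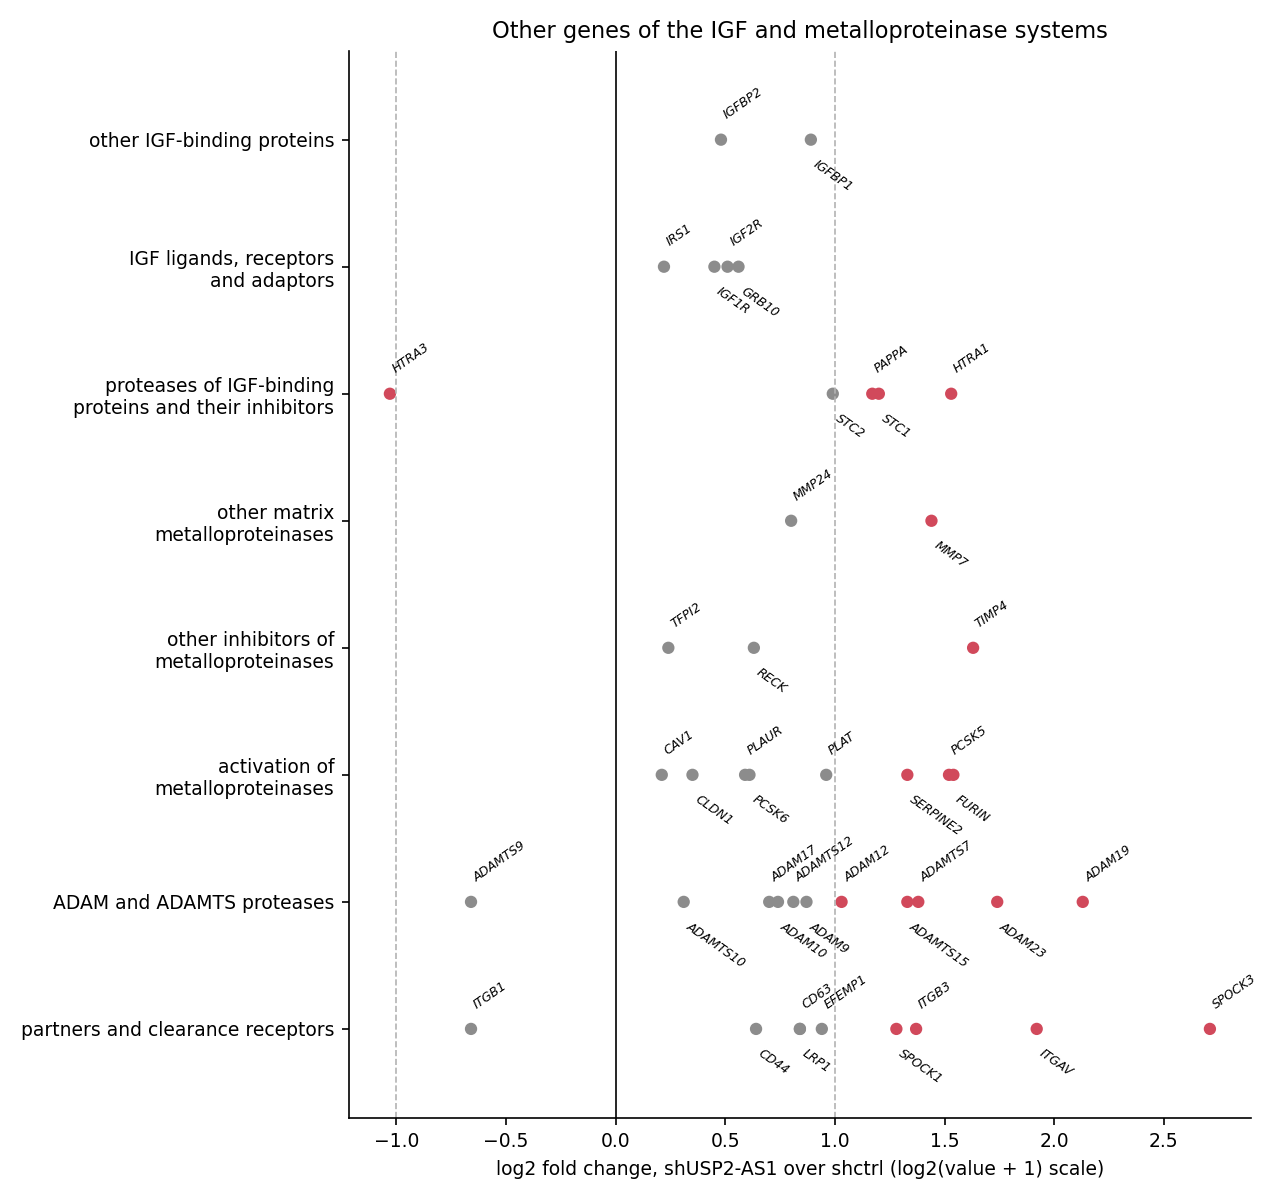
Log2 fold change in shUSP2-AS1 over shctrl of the listed genes in 8 groups of the IGF and metalloproteinase systems, with called genes in red, the others in grey and dashed lines at -1 and 1. Points to the left of 0 are HTRA3, ADAMTS9 and ITGB1, and SPOCK3 and ADAM19 lie farthest to the right.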

How the data were processed

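RNA-seq libraries of A549 cells (2 shctrl, 2 shUSP2-AS1) were compared. The submitters' processing notes name HISAT2 2.0.5, featureCounts 1.5.0-p3, DESeq2 1.20.0 and hg38. For each gene the deposited table gives the authors' normalized signal in every library (reads over a size factor), the gene length, and the log2 fold change with its p-value before and after adjustment. The authors' test columns were used only to check that 0 of 6828 genes had an adjusted p of 0.05 or more. Table columns were assigned to samples by the heading and the replicate number, and 0 columns belonged to other samples. All 4 columns (100% of values, tolerance 0.001 of a read) gave whole reads, from which 10772788 to 14120472 reads per library were recovered. Member coordinates had the same ends in GENCODE release 44 on GRCh38.

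Genes averaging 10 or more were tested with limma 3.58.1 (R 4.3.3) on log2(value + 1), where changes at low counts come out too small, with Benjamini-Hochberg adjustment over 6812 genes. Methods were tested on simulated data in which few genes changed and none were selected by a p-value, unlike the listed genes. That test therefore does not cover scaling or selection here. Between replicates the chi-square per degree of freedom was 3.75 and 3.84, above counting noise. With 2 libraries per group, p-values and intervals rest on the spread between these libraries alone. For each gene, limma's eBayes step draws that spread toward a trend fitted over all genes tested. All listed genes had passed the authors' test, so this trend comes from a selected set. Alternatives included edgeR 4.0.16, DESeq2 1.42.0, other scalings, filters, a pseudocount of 0.1, a replicate block and leaving out each library. Named genes were all members, listed relatives of their families, and the 4 called genes with the largest change of each list, and other list genes named were chosen after their values were seen. The members and lists were chosen with earlier results of these data known. A gene of the list on activation of metalloproteinases is not reported here and was left out of its counts.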

Additional observations from a re-analysis of the deposited data

How the results depend on the processing

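IGFBP3, IGFBP4, IGFBP7, MMP2, TIMP1, TIMP2 and TIMP3 kept their direction in the 14 alternatives run on the log2 fold change (13 for TIMP3). In those with all 4 libraries they also kept an adjusted p below 0.05, from the test against no change. The alternatives reuse the same libraries and genes already selected on them, and 100.0% of tested genes had such a p in the main test. Keeping it is therefore no independent evidence for a member. IGFBP6 kept its direction, but its log2 fold change of 0.10 had an adjusted p of 0.106 with RLE scaling and 0.213 with DESeq2 and its own size factors. The median log2 fold change over tested genes moved by -0.12 in both settings, which turned the split of calls from 922 lower and 1098 higher to 1143 and 934 (RLE) and 1140 and 942 (DESeq2). Both scalings take most genes as unchanged but were estimated from the listed genes alone, which had all passed the authors' test. This shift of all genes therefore cannot be read as a result on single members. With the size factors of the deposited values, DESeq2 called 922 and 1099 genes. Tested against a 2-fold change, 523 genes were lower and 541 higher, with 0 members lower (IGFBP3 and TIMP2 were no longer called). Without a fold threshold, 3362 genes were lower and 3449 higher, and 7 members were higher. The edgeR test called 923 and 1099 genes. With each library left out, 882 to 955 genes were called lower and 1083 to 1101 higher, and 1 and 4 members. The log2 fold change then ranged from -1.15 to -1.05 for IGFBP3, 1.46 to 1.59 for IGFBP7, 1.38 to 1.46 for MMP2, 1.07 to 1.14 for TIMP2 and -2.99 to -1.78 for USP2-AS1, and the difference in the MMP2 to TIMP2 log2 ratio from 0.24 to 0.39. A block for the replicate number gave 922 and 1098 calls and the same 5 members. Same-numbered libraries showed no shared deviation (correlation -0.04 over genes), and no source says that a number marks a shared culture. The length of the canonical transcript, chosen after seeing the data, moved the levels per kilobase but no fold change. The planned ratios of MMP14 to TIMP2 and MMP1 to TIMP1 were not run. Depth limits TIMP3, with 7 to 97 reads per library.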

Other observations

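The ratio of IGFBP7 to IGFBP3 per kilobase was 1.59 and 1.54 in shctrl and 9.52 and 9.85 in shUSP2-AS1, the widest shift in balance between the IGFBP members, a pair chosen after the values were seen. In GENCODE release 44, TIMP1, TIMP3 and TIMP4 each lie inside a synapsin gene on the opposite strand (SYN1, SYN3 and SYN2), and TIMP2 does not. SYN2 shares 170 exon bases with TIMP4 and is listed, with normalized read counts of 46.4 and 16.5 in shctrl and 105 and 100 in shUSP2-AS1 (log2 fold change 1.85). SYN1 and SYN3 share 0 exon bases with TIMP1 and TIMP3 and have no row in the table. Of the epithelial markers, KRT18 had a log2 fold change of -1.05, KRT8 of -0.77 and KRT19 of 0.75. The fibroblast marker COL1A1 had 270 and 267 reads in shctrl and 504 and 702 in shUSP2-AS1, and LUM had 2 and 1 against 24 and 18. LUM averaged 1.52 in shctrl and 20.5 in shUSP2-AS1, and reached the mean of 10 needed for testing only through shUSP2-AS1. What part these markers have in the results on the members was not tested.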
